A study of Mus musculus with 6 samples.

Results

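The oligoadenylate synthetase (Oas) family was followed in oocytes of aged females (AF), as 9 genes: Oas1a, Oas1b, Oas1c, Oas1d, Oas1e, Oas1g, Oas1h, Oas2 and Oas3. They are 9 of the 25899 genes of the deposited expression table, and were taken by symbol, with earlier results of these data known. In AF oocytes 4 of these 9 members, Oas1e, Oas1c, Oas1h and Oas1d, held between 96.4% and 99.9% of the summed Oas FPKM in each library. That sum covers the 9 members alone. It leaves out the further family gene Oas1f, at means of 230.1 FPKM in non-polysomal and 84.12 FPKM in polysomal libraries. Oas1e was the highest member in all 6 libraries, and Oas2 was at or near 0 in all of them. FPKM, fragments scaled to the exon length of the gene and to the mapped reads of the library, is corrected for gene length, so members can be set in order.

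The 6 libraries analysed were 3 of the non-polysomal (NP) and 3 of the polysomal (P) part of a sucrose gradient, numbered 1 to 3 in each. Each came from 200 oocytes of CD1 mice 58 weeks old according to the labels, while the methods of the study name the strain ICR. All oocytes were grown in females primed with gonadotropin, cultured for 180 min without the meiotic inhibitor IBMX until nuclear envelope breakdown (NEBD), and exposed for 10 min to cycloheximide at 0.1 mg/ml, which holds ribosomes on mRNA. Per the study, NP holds free RNAs and those on monosomes, and P those on polysomes. Each library is scaled to its own reads. The ratio of P to NP therefore compares relative levels and is not the part of an mRNA on polysomes. Oocytes were pooled, the RNA of pooled fractions was depleted of ribosomal RNA and amplified before sequencing, and libraries of young females are not analysed here, so nothing below is an effect of age. The labels number the replicates but do not say that they come from separate animals or cultures, so p-values measure the spread between these libraries only.

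Oligoadenylate synthetases bind double-stranded RNA, a sign of viral infection, and the active enzymes join ATP into short 2′-5′-linked oligoadenylates. These act as a second messenger of the antiviral response. In most tissues the family is induced by interferon, but the mouse holds an expanded set of Oas1 genes, of which several are known for expression in the ovary. Oas1d is an oocyte member without synthetase activity, and its loss lowers female fertility in mice.

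All 9 members lie in a stretch of 191320 bp of chromosome 5 (GRCm38, GENCODE M21). From the lower coordinate the order was Oas2, Oas3, Oas1e, Oas1c, Oas1b, Oas1h, Oas1g, Oas1a and Oas1d, with the further family gene Oas1f between Oas1b and Oas1h. Oas1b, Oas1h and Oas1d are on the plus strand and the others on the minus strand. Oas1e spans chr5:120786312-120795530, Oas1c chr5:120800194-120812514, Oas1h chr5:120861421-120873512 and Oas1d chr5:120914536-120921652. The 4 abundant members are thus not one block, since Oas1b lies between Oas1c and Oas1h, and Oas1g and Oas1a lie between Oas1h and Oas1d.

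The map of the cluster shows that some members next to each other were alike and others differed widely. The neighbours Oas1e and Oas1c were both high in NP, at means of 2789 and 1929 FPKM. Oas1g and Oas1a, also neighbours, were both low, at 3.358 and 1.343 FPKM. The first bases of Oas1c and Oas1b, which are transcribed away from each other, are separated by 120 bp, yet Oas1c was at a mean of 1929 FPKM in NP and Oas1b at 15.98 FPKM. Outside the cluster, the nearest listed gene on the Oas2 side, Dtx1, was listed at 0 in all 6 libraries. On the Oas1d side, Rph3a was at 14.09, 11.85 and 5.832 FPKM in NP and at 22.19, 2.547 and 12.67 FPKM in P, far under Oas1d beside it.

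**Figure D1:**
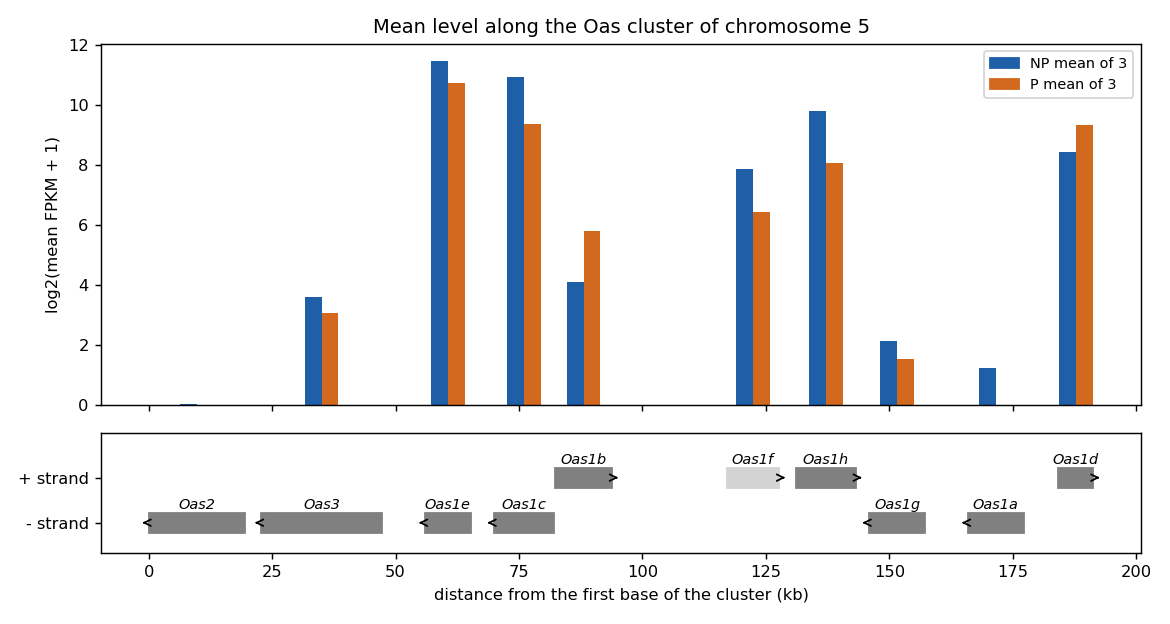
Upper panel, mean level in NP and in P (log2(FPKM + 1), bars from 0, 3 libraries each) of the genes of the Oas cluster against the distance from its first base in kb. Lower panel, gene bodies on each strand with the direction of transcription, members in dark grey and Oas1f in light grey; the tall bars of Oas1e, Oas1c, Oas1h and Oas1d are interrupted by the low members Oas1b, Oas1g and Oas1a.

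RefSeq (GRCm38.p6) gives a promoter for 5 of the 9 members, Oas1a, Oas1c, Oas1g, Oas1h and Oas3, and for Oas1f. Oas1b, Oas1d, Oas1e and Oas2 were not matched. The 150 bases before the start are shown for these genes because they include both abundant and low members. Capitals mark GAAA, any 2 bases and GAAA again, the core of the interferon-stimulated response element, searched on both strands. Overlapping matches are drawn as 1 run.
Oas1a: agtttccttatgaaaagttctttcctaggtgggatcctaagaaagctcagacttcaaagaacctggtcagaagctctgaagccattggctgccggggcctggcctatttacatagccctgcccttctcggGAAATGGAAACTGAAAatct
Oas1g: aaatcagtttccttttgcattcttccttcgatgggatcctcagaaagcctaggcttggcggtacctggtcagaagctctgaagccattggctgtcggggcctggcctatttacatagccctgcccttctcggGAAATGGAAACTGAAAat
Oas3: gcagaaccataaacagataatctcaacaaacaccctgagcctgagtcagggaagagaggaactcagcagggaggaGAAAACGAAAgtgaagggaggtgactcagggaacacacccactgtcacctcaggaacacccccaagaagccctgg
Oas1c: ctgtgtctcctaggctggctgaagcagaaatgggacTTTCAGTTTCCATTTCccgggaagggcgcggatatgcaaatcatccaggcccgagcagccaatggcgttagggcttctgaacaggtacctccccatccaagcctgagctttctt
Oas1h: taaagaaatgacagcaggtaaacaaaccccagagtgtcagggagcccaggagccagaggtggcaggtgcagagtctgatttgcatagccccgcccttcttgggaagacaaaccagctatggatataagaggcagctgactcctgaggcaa
Oas1f: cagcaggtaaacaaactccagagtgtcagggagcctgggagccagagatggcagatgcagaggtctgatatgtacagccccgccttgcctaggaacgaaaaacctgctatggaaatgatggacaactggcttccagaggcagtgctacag

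These are chr5:120907526-120907675 for Oas1a, chr5:120887614-120887763 for Oas1g, chr5:120777660-120777809 for Oas3 and chr5:120812515-120812664 for Oas1c, all on the minus strand, and chr5:120861272-120861421 for Oas1h and chr5:120847217-120847366 for Oas1f on the plus strand. Of the 32851 promoters of 300 bases in the RefSeq table, 3.44% held the motif. It was found in 4 of the 5 matched members. These are not separate cases, as the Oas1a and Oas1g promoters were 86.9% identical over 244 aligned bases. Oas1a and Oas1g each held 2 overlapping matches close to the start, between 20 and 5 bases before it in Oas1a and between 18 and 3 bases before it in Oas1g. Oas3 held 1 match, 75 to 66 bases before the start.

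The Oas1c window held 2 overlapping matches on the opposite strand, where they read the same as the run in Oas1a and Oas1g. Counted from the first annotated base of Oas1b on the other side of the shared stretch, these matches lie at -22 to -7, a distance like that in Oas1a and Oas1g. No match was present in the windows of Oas1h and Oas1f. A match is a run of letters and not a site shown to be used, and binding was not measured.

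The members differ in how well short reads can tell them apart. Over coding sequence, Oas1a and Oas1g were 96.7% identical, Oas1d and Oas1e 90.5%, Oas1c and Oas1e 85.0% and Oas1b and Oas1e 71.4%, the lowest of the pairs compared. Of all 50-base words in the Oas1a transcript, 57.6% occurred exactly in transcripts of other genes, with Oas1g accounting for that whole share, and for Oas1g the share was 54.7%. Values of Oas1a and Oas1g are therefore uncertain, because the handling of reads that match both is not given in the sources used here. The share was 16.3% for Oas1c, 11.5% for Oas1e, 6.24% for Oas1d and 0.484% for Oas1h. At 100 bases, none of the words of Oas1d, Oas1e, Oas1h or Oas1b was shared. The antisense gene Gm43069 overlaps Oas1c exons, and without a stated strand setting its reads cannot be told apart from those of Oas1c.

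The depth behind the values was uneven. FPKM hides depth, but its low values are multiples of what 1 read is worth, and the depth recovered from these steps was between 1237799 and 18096676 reads in NP and between 163822 and 1549317 reads in P, lowest in P replicate 1. Between 59.6% and 65.6% of the low values checked in a library came out whole within 0.02 reads. FPKM summed to between 597261 and 633110 in NP and between 246182 and 393876 in P, and over all 10578 genes tested the log2 ratio of P to NP had a median of -1.03. A member that falls by that much moves with the typical gene, and the ratio of each tested member is also given relative to this median. In pooled cells, fewer molecules per cell and fewer contributing cells cannot be told apart.

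Markers fitted the label of oocytes. All 13 oocyte markers were above 0 in all 6 libraries, with summed levels of 14167 to 18329 FPKM in NP and 5726 to 18043 FPKM in P. Their 3 highest genes by the mean over all 6 libraries were Gdf9, an oocyte growth factor, with means of 1925 FPKM in NP and 3578 FPKM in P, Zp3, a zona pellucida glycoprotein, with 3217 and 1536 FPKM, and Padi6, of the subcortical maternal complex, with 1488 and 1745 FPKM. Of 13 granulosa cell markers, 7 were at 0 in all libraries (53.8%), among them Amh, Fshr and Foxl2. Of all genes 44.1% were at 0 in the same way, so such counts alone say little of whether other cells were present. The summed level of the granulosa list ranged from 11.22 to 131 FPKM in NP and from 1.541 to 16.49 FPKM in P, mostly from Cyp19a1 (means 44.57 and 5.145 FPKM) and Nr5a2 (12.19 and 2.296 FPKM), with Kitl next at 0.5499 and 0.4036 FPKM. Cyp19a1 was uneven, at 7.149, 22.49 and 104.1 FPKM in NP and at 15.43, 0 and 0 FPKM in P, so its P mean rests on 1 library. Of the 8 immune markers listed, 5 were at 0 in all libraries (62.5%), including Ptprc. The immune sum ranged from 0.5174 to 16.52 FPKM in NP and from 0.4049 to 8.07 FPKM in P, mostly from Csf1r, except in P replicate 3, where all of it was Itgam. The next highest was Cd68. The 4 blood markers listed were all at 0. Limma called none of the 13 oocyte, 2 granulosa or 1 immune marker that passed its filter, and their median log2 ratios were -0.46, -2.70 and -1.14.

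Oas1e, an Oas1 paralog close to Oas1d in sequence, was at 3169, 2695 and 2501 FPKM in NP replicates 1 to 3 and at 1570, 600.2 and 2921 FPKM in P replicates 1 to 3. By mean level it ranked 13 of all genes in NP and 12 in P, and its rank in single libraries was between 12 and 25. P replicate 3 lay inside the NP range, so the groups overlapped. The means were 2789 ± 343.7 FPKM (SD, n = 3) in NP and 1697 ± 1166 FPKM (SD, n = 3) in P.

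Oas1c, a further Oas1 paralog, was at 1636, 2367 and 1784 FPKM in NP and at 936.6, 514.7 and 493.5 FPKM in P. Every P library was below every NP library, and the NP mean of 1929 ± 386.5 FPKM (SD, n = 3) was 2.98 times the P mean of 648.3 ± 249.9 FPKM (SD, n = 3).

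Oas1h, also of the Oas1 group, was at 659, 1100 and 876.8 FPKM in NP and at 332.2, 348 and 114.1 FPKM in P. Again no P library reached the lowest NP library. The means were 878.6 ± 220.5 and 264.8 ± 130.8 FPKM (SD, n = 3 each), a ratio of 3.32.

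Oas1d, the member tied to female fertility, was at 407.7, 302 and 317.7 FPKM in NP and at 1003, 263.1 and 655 FPKM in P. In P replicates 1 and 3 it was above every NP library, while P replicate 2 was below them all, so the groups overlapped. The means were 342.5 ± 57.04 FPKM in NP and 640.3 ± 370.1 FPKM in P (SD, n = 3 each), and the rank among all genes was 335 in NP and 55 in P.

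Below these 4 the levels dropped steeply. Oas1b, which confers resistance to flaviviruses in wild mice, carries a truncating variant in most laboratory strains and is annotated as a polymorphic pseudogene. It was at 31.75, 13.39 and 2.79 FPKM in NP and at 9.996, 0.9563 and 151.8 FPKM in P. P replicate 3 alone held 93.3% of the summed P level, and the values in P replicates 1 and 2 rest on 3 and 2 recovered reads.

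Oas3, the largest synthetase of the family with repeated synthetase units, was at 17.31, 13.92 and 1.577 FPKM in NP and at 12.85, 5.531 and 3.581 FPKM in P. The ranges overlapped, and P replicate 1 rests on 11 recovered reads.

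The remaining members were at the limit of detection in most libraries. Oas1g, an active synthetase, was at 0.3453, 9.658 and 0.07046 FPKM in NP and at 0, 5.615 and 0 FPKM in P, so that only replicate 2 of each fraction had more than 2 recovered reads. Oas1a, likewise an active synthetase, was at 1.714, 2.14 and 0.1749 FPKM in NP and listed at 0 in all 3 P libraries. A count of 0 allows up to 3 reads, which for Oas1a is worth 9.715, 1.394 and 1.027 FPKM in P replicates 1 to 3, and the NP mean of 1.343 FPKM was under this limit in P replicates 1 and 2. Amplification copies molecules, so such limits hold for counting error alone.

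Oas2, the synthetase with a duplicated unit, was at 0.03724 FPKM in NP replicate 2, the most deeply sequenced library, and listed at 0 in the other 5. That value is 3 recovered reads. The 3-read limit for Oas2 was between 0.03724 and 0.5445 FPKM in NP and between 0.435 and 4.114 FPKM in P. Recovered read numbers depend on the exon length assumed, and for Oas1b, Oas1e, Oas1h and Oas3 the length was the one that made the libraries whole and not the annotated total.

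**Figure D2:**
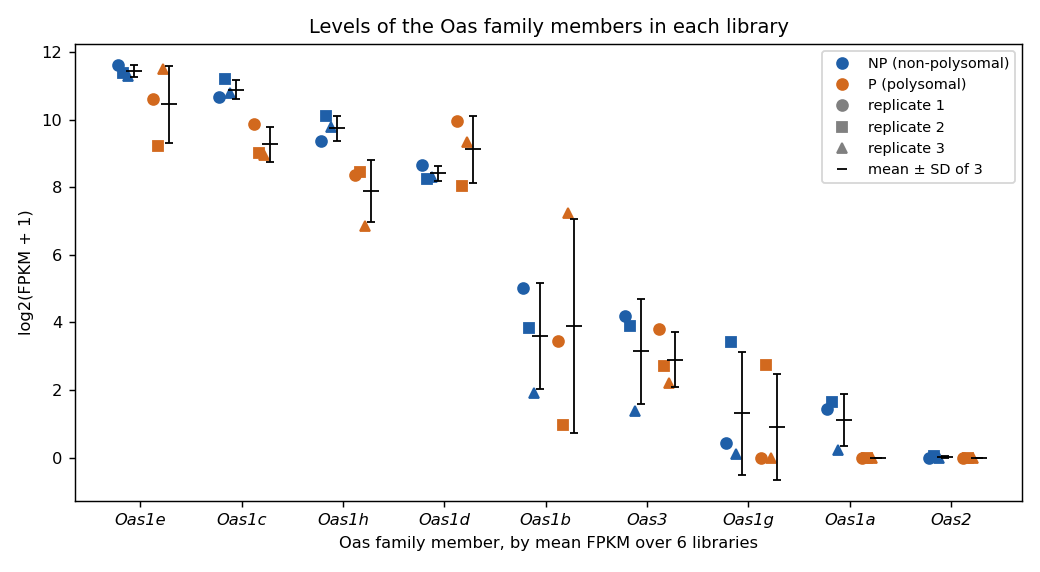
Level of each Oas member (log2(FPKM + 1)) in each of the 6 libraries, NP in blue and P in orange, with the replicate number as the symbol and the mean ± SD of 3 libraries in black. Oas1e, Oas1c, Oas1h and Oas1d stand above the other 5 members in every library except P replicate 3, where Oas1b at 151.8 FPKM passes Oas1h at 114.1 FPKM, and the points of the low members scatter widely.

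The order of the members over the 6 libraries was Oas1e, Oas1c, Oas1h, Oas1d, Oas1b, Oas3, Oas1g, Oas1a and Oas2. Neighbours in this order were compared within libraries on log2(FPKM + 1) by a two-sided exact sign-flip permutation test, for 8 pairs with Benjamini-Hochberg adjustment. The pairs were taken from the mean levels of these same libraries, so the tests describe the order and give it no independent support. The smallest p that 6 libraries allow is 0.0312. Each NP library shares its gradient with a P library, and over 3 gradients the smallest exact p would be 0.25, so no pair could pass on that count. Oas1e was above Oas1c in 6 of 6 libraries by 0.86 ± 0.89 (SD, exact p = 0.0312, adjusted p = 0.0833). Oas1c was above Oas1h in 6 of 6 by 1.27 ± 0.52 and Oas1d above Oas1b in 6 of 6 by 5.02 ± 1.96, both with the same exact p and adjusted p.

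The other neighbours were not ordered the same way in all 6 libraries. Oas1h and Oas1d differed by 0.05 ± 1.74 (exact p = 0.938), a mean over opposite directions, since Oas1h was higher in all 3 NP libraries and in P replicate 2, and Oas1d in P replicates 1 and 3. By the P means Oas1d, at 640.3 FPKM, lay between Oas1c at 648.3 FPKM and Oas1h at 264.8 FPKM. Oas1b and Oas3 differed by 0.72 ± 2.31 with each higher in 3 libraries (exact p = 0.625), and Oas3 was above Oas1g in 5 of 6 by 1.91 ± 1.63 (exact p = 0.0625, adjusted p = 0.125). Oas1g and Oas1a were tied at 0 in 2 libraries and Oas1a and Oas2 in 3, so neither of these pairs could have passed, and Oas1a was above Oas2 in the other 3 libraries.

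As a share of all FPKM in a library, the 9 members took 0.968%, 1.03% and 0.918% in NP and 1.13%, 0.706% and 1.10% in P. The means were 0.971% ± 0.0546 and 0.980% ± 0.237 (SD, n = 3 each), so the P range enclosed the NP range. The summed Oas level itself was 5970 ± 511.3 FPKM in NP and 3314 ± 1385 FPKM in P.

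Across all genes tested, limma on log2(FPKM + 1) with Benjamini-Hochberg adjustment called 192 genes at an adjusted p under 0.1, of which 190 (1.8%) were lower and 2 (0.0189%) higher in P. Without NP replicate 1, 2 or 3 the count was 4, 12 or 1, without P replicate 3 it was 331, with no trend it was 15 and with no filter 1. The split also depended on scale. After median-of-ratios rescaling 2 genes were higher and 1 lower, after quantile normalization 2 and 2, and after scaling to a common FPKM sum 2 and 5, with medians of all genes at -0.37, 0.00 and -0.43. Of the 9 Oas members, 8 passed the filter of a mean above 1 FPKM in either fraction, Oas2 being the exception. None of the 8 was called by limma without pairing, against 1.82% of all genes tested, and 2 members had an unadjusted p under 0.05, as did 1669 of all genes tested.

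Those 2 members were Oas1h and Oas1c. For Oas1h the log2 ratio of P over NP was -1.86 ± 0.63 (SE, limma adjusted p = 0.164), which is -0.83 relative to the median of all genes. For Oas1c it was -1.62 ± 0.51 (SE, limma adjusted p = 0.136), or -0.59 relative to the median. For each of them the exact two-sided permutation p was 0.1, the smallest that 3 libraries against 3 allow. Every P library was below every NP library for Oas1c and Oas1h, as for 23.2% of all genes tested. That share counts values listed at 0 as they stand. Oas1a is listed at 0 in every P library, but NP replicate 3, at 0.1749 FPKM, was under the 3-read limit of each of them, so for Oas1a the order of the libraries was not detectable at this depth. The methods of the study say that NP and P fractions were pooled from each sample, so each NP library has a P partner from the same gradient, and the labels number both 1 to 3 without stating that the numbers match. With the replicate number as a block, limma called Oas1c (adjusted p = 0.0808) and Oas1h (adjusted p = 0.0983), with unchanged ratios, in a fit that called 6.27% of all genes tested lower in P. For Oas1a, with every P library at 0, the ratio depends on the pseudocount and is no bound.

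Oas1d had a log2 ratio of 0.71 ± 0.64 (SE, limma adjusted p = 0.546). Relative to the median of all genes its ratio was 1.74. It stayed above 0 in all 15 alternative settings, between 0.29 and 1.71, and no setting brought it under the threshold. Oas1e, at -0.98 ± 0.52 (SE, limma adjusted p = 0.35), was 0.05 from the median of all genes, and its ratio was -0.37 without P replicate 2, -1.51 without P replicate 3 and 0.02 after median-of-ratios rescaling.

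The other tested members had wide errors. The log2 ratio was 0.29 ± 1.39 for Oas1b, -0.26 ± 1.24 for Oas3, -0.40 ± 1.10 for Oas1g and -1.11 ± 0.76 for Oas1a (SE, limma adjusted p between 0.459 and 0.928). Set against that median these were 1.32, 0.78, 0.63 and -0.08. Without P replicate 3 the ratio of Oas1b was -1.39. In all, 6 of the 8 tested members had a ratio below 0, where 80.1% of all genes tested did, and 2 had one above 0, where 19.9% did. This count moved with the scale, to 2 of 7 below 0 after median-of-ratios rescaling and 4 of 8 after quantile normalization or scaling to a common sum, and it was 3 of 7 without NP replicate 2. On the values as deposited, the median of the 8 was -0.69. The ratio of a low member on this scale depends on the 1 added to each value. With 0.1 added, it was -3.38 for Oas1a and 0.13 for Oas1b.

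**Figure D3:**
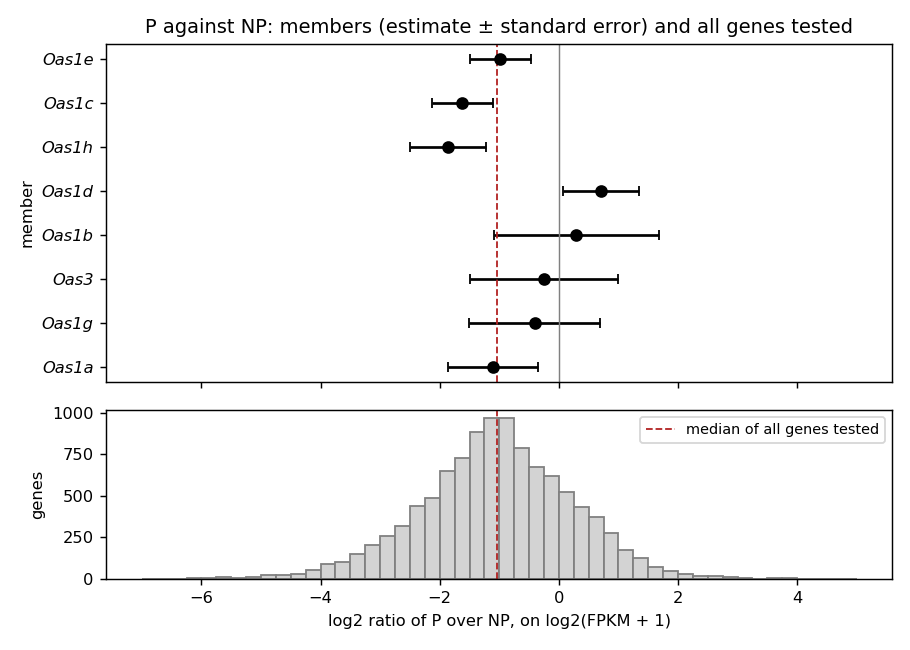
Upper panel, log2 ratio of P over NP on log2(FPKM + 1) for the 8 tested members, with the standard error from limma as bars. Lower panel, number of genes by the same ratio for all 10578 genes tested; the dashed line is their median of -1.03, with Oas1d and Oas1b to the right of 0 and Oas1h, Oas1c and, narrowly, Oas1a to the left of the median.

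Ratios between members of one library do not depend on the scale of that library. They were taken between the 4 abundant members, a choice made after the values had been seen. Oas1e over Oas1d was 7.77, 8.92 and 7.87 in NP and 1.57, 2.28 and 4.46 in P. Oas1c over Oas1d was 4.01, 7.84 and 5.61 in NP and 0.934, 1.96 and 0.753 in P. Oas1h over Oas1d was 1.62, 3.64 and 2.76 in NP and 0.331, 1.32 and 0.174 in P. In each of these 3 ratios no P library reached the lowest NP library. The same held for 27.6% of all other genes tested when divided by Oas1d, and for 44.4% of the 509 with a mean above 100 FPKM in both fractions, so such a separation was common. All 3 ratios share the values of Oas1d and are not separate observations.

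The mean log2 ratio to Oas1d changed from NP to P by -1.70 for Oas1e, -2.33 for Oas1c and -2.58 for Oas1h, which is 3.25-fold, 5.04-fold and 5.97-fold. The exact permutation p was 0.1 for each, the smallest possible, and 0.2 after adjustment over the 6 pairs. The 3 pairs that leave out Oas1d overlapped between fractions, with changes of 0.63 for Oas1e over Oas1c, 0.88 for Oas1e over Oas1h and 0.24 for Oas1c over Oas1h, all at an adjusted exact p of 0.7. Oas1d made up 6.88%, 4.64% and 5.79% of the summed Oas FPKM in NP and 26.0%, 15.1% and 15.1% in P. Oas1e held 46.9% ± 6.13 in NP and 47.5% ± 17.4 in P (SD, n = 3 each), with 67.3% in P replicate 3. Oas1d and Oas1e share 90.5% of coding bases, and the part of reads placed on the wrong one of them was not tested.

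**Figure D4:**
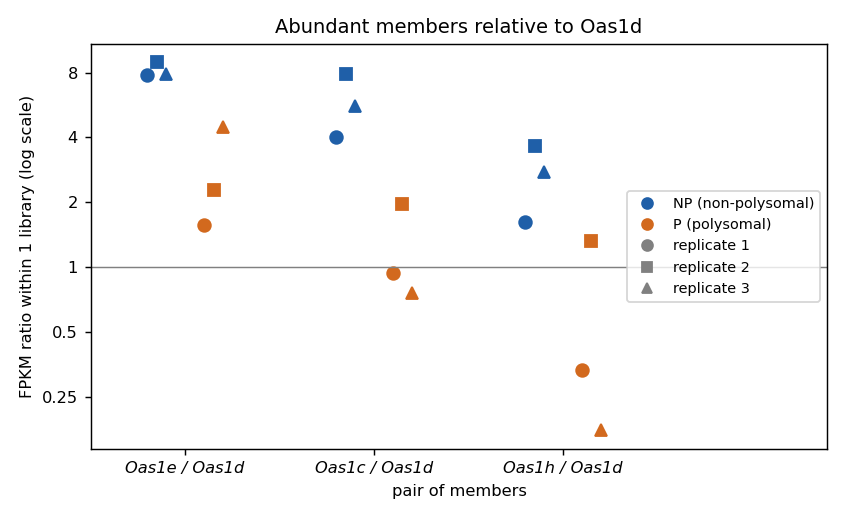
FPKM of Oas1e, Oas1c and Oas1h divided by that of Oas1d in the same library, on a log axis, for NP in blue and P in orange with the replicate number as the symbol and a line at 1. For each pair the 3 NP points sit above the 3 P points; for Oas1h the NP ratios are 1.62 to 3.64 and the P ratios 0.174 to 1.32, and 44.4% of other genes above 100 FPKM separate from Oas1d in the same way.

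Of 7 further genes of the pathway, 5 passed the filter, none was called by limma in either direction, and 4 of these 5 had a log2 ratio below 0 with a median of -0.70. Oas1f, the abundant paralog inside the cluster, was at 178, 179.4 and 332.9 FPKM in NP and at 152.6, 42.62 and 57.13 FPKM in P. Every P library was below every NP library for Oas1f, as for 23.2% of all genes tested. Its log2 ratio was -1.60 ± 0.79 (SE, limma adjusted p = 0.33), or -0.57 relative to the median of all genes. Oasl1, an Oas-like protein without synthetase activity, was at 0.3098, 10.78 and 0.3793 FPKM in NP and at 7.022, 1.008 and 6.435 FPKM in P, and it overlaps the antisense gene Gm13822. The Oasl1 value in NP replicate 1 rests on 1 recovered read, and those in P replicates 1 and 2 on 3 each.

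The other pathway genes described were low. Oasl2, a further Oas-like gene, was listed at 0 in all 6 libraries. For Oasl2 a count of 0 allows up to 0.026 FPKM in NP replicate 2 and up to 2.87 FPKM in P replicate 1. Abce1, a ribosome recycling factor, was at 1.907, 12.13 and 0.1946 FPKM in NP and at 0, 8.041 and 0.1693 FPKM in P. Pde12, which degrades oligoadenylates, was at 5.752, 3.162 and 0.5442 FPKM in NP and at 5.531, 1.134 and 0 FPKM in P. Akap7, which has a related activity, was at 2.216, 10.46 and 6.858 FPKM in NP and at 0, 3.204 and 0 FPKM in P.

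Other sensors and binding proteins of double-stranded RNA were below the 4 abundant Oas members. Of 20 listed, 15 passed the filter, none was called by limma, and the median log2 ratio was -1.07. The kinase Eif2ak2 (PKR), the sensor Ifih1 (MDA5) and Zbp1 were at 0 in all 6 libraries. The 3 highest were Adar, an RNA-editing enzyme, at means of 131.4 FPKM in NP and 73.71 FPKM in P, Tarbp2, a partner of Dicer, at 155 and 19.59 FPKM, and Dicer1, which cuts double-stranded RNA, at 44.68 and 58.65 FPKM.

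Genes of interferon signalling and induction were below Oas1e and Oas1c in mean level in both fractions. Of 24 listed, 11 were at 0 in all libraries, or 45.8%, close to the 44.1% of all 25899 genes. They include Isg15, Irf7, Ifit2, Ifit3, Rsad2 and Usp18. The limit of 3 reads is high for short genes in the shallow libraries, at 24.2 FPKM for Isg15 and 10.5 FPKM for Ifit3 in P replicate 1, against 0.219 and 0.095 FPKM in NP replicate 2. Of the 10 that passed the filter none was called by limma, and their median log2 ratio was -1.03. The highest were Irf1, an interferon regulatory factor, at means of 110.6 FPKM in NP and 90.82 FPKM in P, the related factor Irf3 at 85.17 and 18.21 FPKM, and the receptor chain Ifnar1 at 27.02 and 12.97 FPKM. These means hide a wide spread. In NP replicates 1 to 3 Irf1 was at 173.9, 143.1 and 14.91 FPKM, Irf3 at 168.3, 66.67 and 20.51 FPKM and Ifnar1 at 24.87, 54.99 and 1.192 FPKM.

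**Figure D5:**
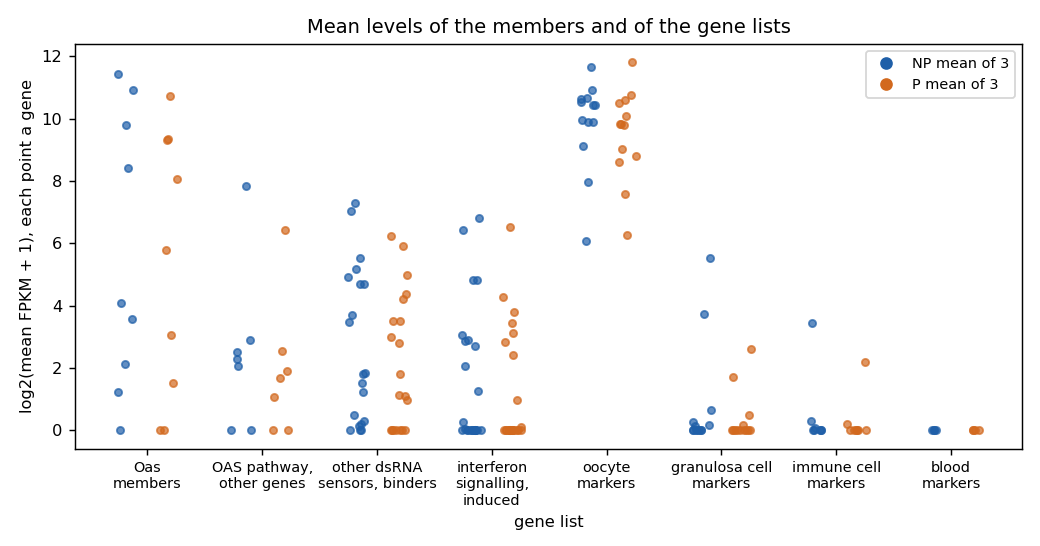
Mean level in NP (blue) and P (orange), as log2(mean FPKM + 1) with each point a gene, of the Oas members and the gene lists. The 4 abundant Oas members lie in the range of the oocyte markers, while 11 of 24 interferon genes and 7 of 13 granulosa cell markers are at 0, as are 44.1% of all genes.

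The genes whose levels followed Oas1e most closely over the 6 libraries were Sh3gl1, Mrps24, Tomm7, Rph3al and Wash, with Pearson correlations of log2(FPKM + 1) between 0.9828 and 0.9962 among 10577 genes. The nearest of them, Sh3gl1, was at 154, 137.2 and 135.7 FPKM in NP and at 79.54, 35.09 and 160.4 FPKM in P, also lowest in P replicate 2. Among the members the correlation with Oas1e was 0.6994 for Oas1b, 0.5539 for Oas1c, 0.5111 for Oas1a, 0.2116 for Oas1d, 0.1743 for Oas1h, 0.08785 for Oas3 and -0.3999 for Oas1g. These describe 6 points that share library depth and the overall difference between fractions.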

How the data were processed

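The 6 libraries of AF oocytes (3 NP, 3 P) were grouped by their labels. Per the labels, the authors used Trim Galore 0.4.1, FastQC 0.11.5, HISAT2 2.0.5 and GRCm38, and the deposited values are FPKM per gene, quantified in SeqMonk. The sources used here do not give the annotation release, the strand setting or the treatment of multiply matching reads. Division by mapped reads lowers FPKM throughout in libraries with many reads outside genes. The table held 25965 rows. For duplicated symbols the row with the highest mean was kept, which dropped 66. The authors' 2 mean columns were not used.

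P was compared with NP by limma 3.58.1 (R 4.3.3) on log2(FPKM + 1), with trend, for genes whose mean passed 1 FPKM in NP or in P, two-sided, at a Benjamini-Hochberg adjusted p of 0.1. Single members were also tested by exact permutation, where 3 against 3 cannot go below 0.1. Depth was recovered from the steps of low FPKM with GENCODE M21 exon lengths, found for 87.3% of genes, and 3 of 3 simulated depths were recovered. What 1 step counts, a read or a spliced segment, is not settled. On simulated data of 10578 genes with 200 changed by 2 (log2), limma recovered 200 at a noise SD of 0.3, with 25 unchanged genes called, and 6 at 1.22, the median residual SD of these libraries.

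Members and lists were chosen with earlier results of these data known. Named genes are all members, the other pathway genes (1 of which is not reported here), the 3 highest genes of each list and any called by limma, the 5 genes most correlated with Oas1e and the listed neighbours of the cluster. Genes named for a level of 0 in all libraries were added after their values were seen. Ratios between members and scaling to a common FPKM sum were added after the data had been seen. The alternatives changed the pseudocount, the filter, the scaling, the trend or the threshold (0.05), added a replicate block, or left out 1 library at a time. Promoters are from RefSeq. Analyses ran in Python 3.11.15, pandas 2.3.3, scipy 1.17.1 and Biopython 1.88.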

Additional observations from a re-analysis of the deposited data

How the results depend on the processing

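No Oas member was called by limma under the alternatives, except with the replicate block. With the replicate number as a block, 668 genes were called (5 higher and 663 lower in P, the latter 6.27% of genes tested) in place of 192, and 2 members were, Oas1c at -1.62 (adjusted p = 0.0808) and Oas1h at -1.86 (adjusted p = 0.0983). Pairs from one gradient follow from the methods of the study, but that the numbers mark them is not stated. Deviations of libraries with one number correlated at 0.0634, 0.0991 and 0.116 across genes, each library best with its own number. For the levels themselves NP replicate 3 was closer to P replicate 2 (Spearman 0.573) than to P replicate 3 (0.551), and NP replicate 1 to P replicate 2 (0.692) than to P replicate 1 (0.638). P replicate 2 was the closest P library to NP replicate 2 as well (0.713). As it was closest to every NP library, the levels cannot show which libraries are partners. The number of genes called was 69 with a pseudocount of 0.1, 1 with no filter, 3 after median-of-ratios rescaling, 4 after quantile normalization, 15 with no trend, 7 with a common FPKM sum and 65 at a threshold of 0.05, and it ranged from 1 to 331 when a library was left out, with 4 without NP replicate 1, 12 without NP replicate 2 and 1 without NP replicate 3. Of 116 recomputed member ratios, 15 changed direction. Oas1b became -0.55 without NP replicate 3 and -1.39 without P replicate 3, and Oas1e became 0.02 after median-of-ratios rescaling. Oas1g became 0.04 after median-of-ratios rescaling, 0.31 after quantile normalization, 0.03 with a common sum, 0.65 without NP replicate 2, and 0.05 without P replicate 1 or P replicate 3. Oas3 became 0.64, 0.84 and 0.55 under the same 3 scalings, 0.27 without NP replicate 1, 0.12 without NP replicate 2 and 0.10 without P replicate 3. With 1 library left out, ratios ranged from -1.39 to 1.76 for Oas1b, from -1.31 to 0.65 for Oas1g and from -1.15 to 0.27 for Oas3. Oas1c, Oas1h and Oas1d kept their direction in all 15 settings, but under those 3 scalings Oas1c shrank to -0.62, -0.78 and -0.68 (adjusted p 0.681 to 0.743) and Oas1h to -0.86, -0.80 and -0.93 (adjusted p 0.707 to 0.748). Oas1e ranged from -1.51 to -0.37 with 1 library left out. The cause of these shifts was not tested. The 3 neighbouring pairs with an adjusted p under the threshold fell to 0 when any library was left out, as 5 libraries allow no exact p under 0.0625. The share of Oas1e ranged from 43.5% to 49.6% in NP and from 37.6% to 54.0% in P. P replicate 1, the shallowest library, limits what can be said of Oas1a, Oas1b, Oas1g and Oas2.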
